A study of Homo sapiens with 43 samples.

Results

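Ribosome biogenesis was followed in HMC3 cells through 45 genes: MYC, 3 subunits of RNA polymerase I and 41 nucleolar proteins that build the ribosome. The genes were taken by name from a list of nucleolar assembly factors, polymerase I subunits and MYC. All 45 were among the 20052 genes counted, and all 45 passed the filter on low counts that left 16816 genes for testing. After 3 days with dexamethasone or with the higher dose of hydrocortisone, 24 to 29 of the 45 genes fell and none rose. The lower dose of hydrocortisone changed none of them by the same test, and 3 days after hormone removal 2 of the 45 (FBL and MYC, after the higher dose of dexamethasone) were lower than in vehicle libraries, a share of 4.44% beside 5.03% of all genes tested.

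HMC3 is an immortalised human line sold as a model of microglia, which are the macrophages that live in brain tissue. The markers of that cell type did not bear out the name. Of 10 microglial markers 3 were measured here, and none of these had a median above 1 CPM. CPM here are reads of a gene per 1e6 reads of its library, with ribosomal RNA genes left out. Of 10 markers of fibroblasts and pericytes 8 were measured, and 6 had a median above 1 CPM. COL1A1 and VIM were the highest of these, at 1680 and 1630 CPM, while ACTA2 and DCN were at 0.923 and 0.41 CPM. A median above 1 CPM was also found for 2 of 4 astrocyte, 2 of 4 neuron and 1 of 4 oligodendrocyte markers. It was found for 0 of 4 endothelial markers. The highest of these other markers was SLC1A3 of astrocytes, at 4.21 CPM. Flasks of this single line received dexamethasone (a synthetic glucocorticoid) at 1 or 0.01 µM, hydrocortisone (cortisol) at 10 or 0.01 µM, the ethanol vehicle belonging to each of these doses, or untreated medium. RNA was taken on day 3, with the treatment present throughout. Counted viable cells from each flask were reseeded in plain medium, and RNA was taken again on day 6, so the day 6 groups had 3 days with hormone and 3 days without. Total RNA was sequenced as 43 libraries in 17 groups: 9 groups of 3 libraries on day 3 (4 hormone groups, 4 vehicle groups, 1 medium group), 4 hormone groups of 3 libraries on day 6, and 4 vehicle groups of 1 library on day 6. The labels name flasks, all of 1 line, so the spread between libraries is that between flasks and library preparations.

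Depth ran from 7638840 to 24426643 counts per library, with a median of 15110044. Ribosomal RNA genes took 9.897% to 94.86% of a library's counts, and 7 libraries had over 75%, so the counts left for other genes ran from 1083395 to 17542023. A pair of well known glucocorticoid receptor targets was used as a check of exposure. FKBP5 rose with dexamethasone 1 µM (log2 change 1.44, SE 0.13), dexamethasone 0.01 µM (1.23, SE 0.13) and hydrocortisone 10 µM (1.22, SE 0.13), each against its own vehicle, and TSC22D3 rose by 3.99, 3.05 and 3.26 in the same order. With hydrocortisone 0.01 µM no gene of the table passed the threshold.

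A ribosome begins in the nucleolus, where RNA polymerase I copies the ribosomal DNA into one long precursor. Box C/D and H/ACA small nucleolar ribonucleoproteins modify that precursor, and successive sets of assembly factors fold it, cleave it and load it with ribosomal proteins to give the small and the large subunit. MYC is a transcription factor that activates genes at every one of these steps, and it is best known for coupling cell growth to ribosome supply. It binds a short motif, the E-box CACGTG, often close to the start of its targets.

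In vehicle libraries of day 3 the members differed widely in level. Per kilobase of exon, NPM1 was the most abundant at 120 ± 11.8 CPM per kb (SD, n = 12), followed by NCL at 45.1 ± 3.51, DDX21 at 42.9 ± 2.7 and MYC at 31.9 ± 3.19. NCL and DDX21 did not differ beyond their spread. The lowest were NOP2 at 0.284 ± 0.101, PPAN at 1.01 ± 0.215 and GAR1 at 1.38 ± 0.315. These 3 were also the least precisely measured, with as few as 2, 7 and 5 counts in a library. NOP2 and PPAN share 54.4% and 59.8% of their exon bases with other annotated genes (AC006064.6, and P2RY11 with the PPAN-P2RY11 readthrough gene), and NHP2 shares 27.4% with RMND5B on the other strand, so their counts are uncertain.

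The first question was what dexamethasone at 1 µM did to these genes. Of the 45, 29 fell and 0 rose after 3 days against the own vehicle, with a median log2 change of -0.36. Over all 16816 genes tested, 12.3% fell, 10.4% rose and the median was 0.02. The changes were modest for each gene: the most marked were NOP16 (fell by 38.3%), NPM1 (fell by 35.8%) and WDR12 (fell by 34%). In 34 of the 45 genes (75.6%) all 3 hormone libraries were below all 3 vehicle libraries, as in 19.2% of all genes tested. A call here is an adjusted p under 0.05 in edgeR's quasi-likelihood test, with Benjamini-Hochberg adjustment over all genes tested, and every adjusted p below comes from that test. In such bulk RNA, fewer cells that express a gene and less of its RNA per cell cannot be told apart.

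MYC itself did not pass at this dose. Its level was 69.8, 77.3 and 84 CPM with dexamethasone 1 µM, against 89.5, 83.8 and 101 CPM in the vehicle libraries. The groups overlapped, with the highest hormone library just above the lowest vehicle library. The log2 change was -0.25 (SE 0.1, adjusted p = 0.0566), short of the threshold. The call turned on single libraries, on the fit and on the reference. MYC passed when replicate 4 of dexamethasone 1 µM or replicate 2 of its vehicle was left out, with log2 changes of -0.314 and -0.306. It also passed without the low count filter (-0.261), without libraries over 75% ribosomal RNA (-0.323) and with only the groups compared (-0.239). The same held with the replicate number as a block (-0.303), against all day 3 vehicles (-0.309) and against untreated medium (-0.521). Over 16 alternative settings, these other references included, and the reported one it passed in 8, with adjusted p from 5.38e-05 to 0.282.

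Among the polymerase I subunits, POLR1B, the second largest and part of the catalytic core, fell and the other two did not pass. POLR1B was at 17.1, 16.8 and 18.4 CPM with hormone and at 24.1, 26.8 and 27.6 CPM in vehicle, a log2 change of -0.58 (SE 0.08, adjusted p = 5.1e-07). All 3 hormone libraries lay well below all 3 vehicle libraries. POLR1A, the largest subunit, had a change of 0.17 (SE 0.1, adjusted p = 0.239), and POLR1C, shared with RNA polymerase III, had -0.29 (SE 0.13, adjusted p = 0.102).

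The genes of snoRNP proteins fell nearly as a set, 6 of 7. In box C/D particles, which guide ribose methylation, NOP56, NOP58 and the methyltransferase FBL changed by -0.38, -0.32 and -0.36. In H/ACA particles, which guide pseudouridylation, NHP2 changed by -0.51, the chaperone NOLC1 by -0.44 and the pseudouridine synthase DKC1 by -0.41. GAR1 had -0.17 with an SE of 0.2 and did not pass. NOLC1 read 71.2, 64.9 and 68.4 CPM with hormone and 92.1, 91.3 and 93.8 CPM in vehicle (adjusted p = 2.75e-06). The vehicle values of NOLC1 lay close together and well above every hormone library.

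Of the 13 factors of the small subunit 7 fell. WDR43, a component of the UTP-A complex that binds the nascent precursor, stood at 52.6, 58.4 and 55.6 CPM with hormone and at 77.9, 80.7 and 89.8 CPM in vehicle (log2 change -0.58, SE 0.08, adjusted p = 5.14e-07). The other 6 were RRP9 (-0.41), PNO1 (-0.37), RRP12 (-0.36), HEATR1 (-0.34), NOP14 (-0.34) and TSR1 (-0.29). All 13 had a change below 0, from -0.58 to -0.04, and NOB1, UTP4, BYSL, UTP15, UTP20 and NOC4L did not pass.

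Of the 15 factors of the large subunit 10 fell. NOP16 read 10.3, 8.97 and 9.65 CPM with hormone and 13.1, 15.8 and 18 CPM in vehicle (log2 change -0.7, SE 0.11, adjusted p = 5.71e-06). WDR12, which forms the PeBoW complex with PES1 and BOP1, read 14.6, 18 and 15.8 CPM against 24.2, 24.2 and 25.1 CPM (-0.6, SE 0.1, adjusted p = 8.68e-06). Its partners BOP1 (-0.57) and PES1 (-0.26) fell too, so the RNA of all 3 subunits of PeBoW was lower. MRTO4, NOC3L, NOC2L, GNL2, WDR74 and RRP1B completed the 10, with changes from -0.41 to -0.22. PPAN had the only estimate above 0 among them, 0.37 with an SE of 0.23, and did not pass (adjusted p = 0.274). RRS1, GRWD1, NIP7 and NOP2 did not pass either, with changes from -0.36 to -0.08.

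Of the 6 genes of other nucleolar proteins 5 fell. NPM1, a chaperone of nucleolar granular component, was at 337, 322 and 276 CPM with hormone and at 452, 524 and 480 CPM in vehicle (log2 change -0.64, SE 0.09, adjusted p = 8.13e-07). DDX21 (ENSG00000165732), an RNA helicase of the nucleolus, had the smallest p of the 45: 156, 147 and 152 CPM against 206, 215 and 212 CPM (-0.47, SE 0.06, adjusted p = 1.46e-07). GNL3 (nucleostemin, a GTPase) stood at 40.8, 42.3 and 40.3 CPM against 55.1, 55.2 and 58.7 CPM (-0.45, SE 0.07, adjusted p = 7.74e-06). In each of these 3 genes every hormone library was below every vehicle library. LYAR (-0.59) and NCL, nucleolin (-0.48), fell as well, and MYBBP1A had -0.22 (adjusted p = 0.0972).

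**Figure D1:**
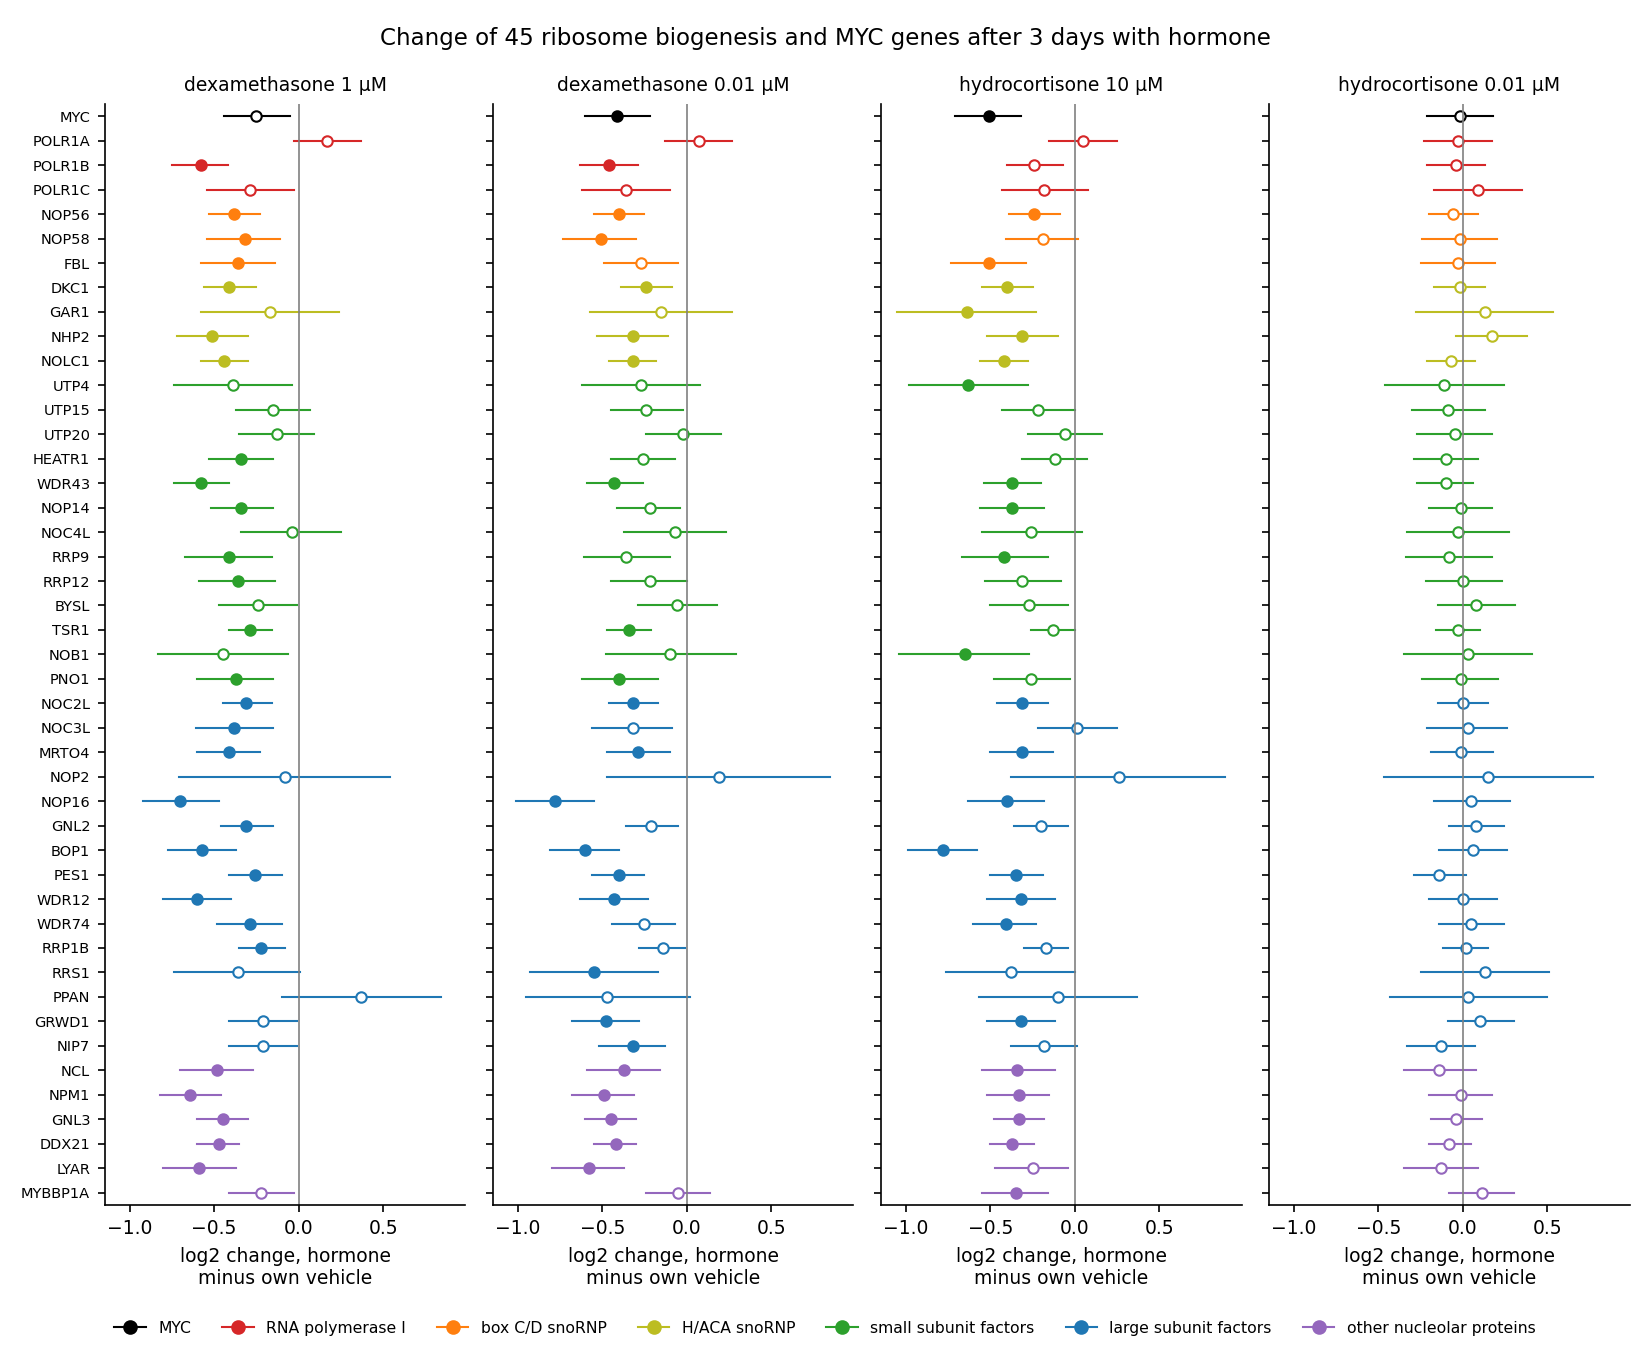
Log2 change of each of the 45 genes after 3 days with hormone against its own vehicle (horizontal axis), with 95% intervals, in the 4 hormone groups; colours give the role and filled points passed the threshold. In the first 3 panels 29, 24 and 25 points are filled, all to the left of 0, and in the fourth none is.

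Ribosomal RNA shares ran from 23.17% to 76.08% in the dexamethasone 1 µM libraries and from 13.91% to 45.65% in their vehicle. With ribosomal RNA genes left out 30 members fell, and without the libraries over 75% ribosomal RNA 33 fell.

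The next comparison asked whether dexamethasone at the lower dose, 0.01 µM, still acted on these genes. It lowered 24 of the 45 and raised none, with a median log2 change of -0.32, while 7.84% of all genes tested fell and 6.14% rose. Here MYC passed. It read 68.7, 65.4 and 78 CPM with hormone and 91.1, 96 and 94.4 CPM in vehicle, a log2 change of -0.41 (SE 0.1, adjusted p = 0.00209), and the groups did not overlap.

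The members with the smallest p at this dose were again mainly large subunit and nucleolar proteins. NOP16 stood at 9.61, 9.84 and 9.32 CPM against 17.5, 14.7 and 17.3 CPM (-0.78, SE 0.11, adjusted p = 1.23e-06), a fall by 41.9%. BOP1 stood at 26.2, 27.4 and 30.9 CPM against 43, 39.8 and 45.5 CPM (-0.6, SE 0.1, adjusted p = 1.66e-05). In both genes the highest hormone library was far below the lowest vehicle library. DDX21 had 179, 171 and 152 CPM against 237, 224 and 215 CPM (-0.42, SE 0.06, adjusted p = 2.71e-06). GNL3 had 44.9, 45.5 and 38.2 CPM against 63.6, 51.8 and 60.1 CPM (-0.45, SE 0.07, adjusted p = 1.83e-05). LYAR, a nucleolar zinc finger protein, had 11.4, 11.2 and 10.8 CPM against 17.4, 16.3 and 16.4 CPM (-0.58, SE 0.11, adjusted p = 9.23e-05). These 3 genes, picked for their small p, did not overlap between groups. In 26 of the 45 members (57.8%) all hormone libraries were below all vehicle libraries, as in 12.4% of all genes tested.

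Polymerase and box C/D genes followed. POLR1B read 19.6, 20.1 and 18.6 CPM against 24.6, 27.1 and 28.6 CPM (-0.46, SE 0.08, adjusted p = 7.69e-05). NOP56 read 85.4, 88.6 and 84.3 CPM against 107, 105 and 129 CPM (-0.4, SE 0.07, adjusted p = 9.37e-05). TSR1, a late factor of the small subunit, read 87.6, 88.8 and 72.6 CPM against 99.7, 106 and 110 CPM (-0.34, SE 0.06, adjusted p = 9.58e-05). None of these 3 overlapped between hormone and vehicle. By role, 9 of 15 large subunit factors, 5 of 6 other nucleolar proteins, 3 of 4 H/ACA proteins, 2 of 3 box C/D proteins, 1 of 3 polymerase subunits and 3 of 13 small subunit factors fell. RRS1, GRWD1 and NIP7 passed here and not at 1 µM, where their changes were -0.36, -0.21 and -0.21.

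One library of this group had 94.86% ribosomal RNA and one of its vehicle 82.49%. Without libraries over 75% ribosomal RNA 26 members fell, and without the ribosomal RNA genes 26 fell. When only the libraries of these 2 groups entered the fit, which leaves 4 residual degrees of freedom, 12 members fell and 709 genes passed in all in place of 2351.

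Hydrocortisone at 10 µM lowered 25 of the 45 and raised none, with a median log2 change of -0.31. Over all genes tested 7.51% fell and 5.57% rose. MYC was at 61.5, 67.3 and 63.1 CPM with hormone and at 92.4, 90 and 91.4 CPM in vehicle. Replicates were close in both groups, and the groups lay far apart. The log2 change was -0.51 (SE 0.1, adjusted p = 0.000123), a fall by 29.9%.

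BOP1 changed most: 24.3, 24.2 and 21.6 CPM against 48.1, 38.1 and 34.6 CPM (-0.78, SE 0.1, adjusted p = 8.21e-08), a fall by 41.9%. PES1, its partner, read 53.3, 50.6 and 49.4 CPM against 72, 67 and 55.9 CPM (-0.35, SE 0.08, adjusted p = 0.00107). The vehicle libraries of both genes were spread more widely than the hormone libraries, without overlap, and the highest was the library with 91.38% ribosomal RNA. The genes of H/ACA proteins all fell, 4 of 4. NOLC1 had 77.3, 75.7 and 69.1 CPM against 98.1, 100 and 99.4 CPM (-0.42, SE 0.07, adjusted p = 1.09e-05). DKC1 had 38.2, 37.5 and 35.9 CPM against 48.6, 51.5 and 46.9 CPM (-0.4, SE 0.07, adjusted p = 0.000117). GAR1 passed only in this comparison of the 4, at -0.64 with an SE of 0.2, and stood at 2.05, 2.18 and 2.08 CPM against 4.62, 2.99 and 2.4 CPM, the 4.62 again from the library with 91.38% ribosomal RNA.

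FBL, the methyltransferase of box C/D particles, had 27.5, 21 and 21.9 CPM against 40.2, 30 and 30.6 CPM (-0.51, SE 0.11, adjusted p = 0.000638). Its 40.2 CPM came from the library with 91.38% ribosomal RNA. DDX21 had 152, 152 and 160 CPM against 195, 210 and 196 CPM (-0.37, SE 0.06, adjusted p = 3.61e-05). WDR43 had 59.4, 56 and 59.2 CPM against 74.7, 80.5 and 70.4 CPM (-0.37, SE 0.08, adjusted p = 0.00123). In these 3 genes, picked for their small p, the hormone libraries were all below the vehicle libraries. That held for 34 of the 45 members (75.6%) and for 14% of all genes tested. POLR1B missed the threshold at -0.24 (adjusted p = 0.0531), and no polymerase subunit passed. Of the small subunit factors 5 of 13 fell (WDR43, NOP14, RRP9, UTP4 and NOB1), of the large subunit factors 8 of 15, and of the other nucleolar proteins 5 of 6, with LYAR at -0.25 (adjusted p = 0.119).

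This count leaned on 1 library. Without replicate 4 of hydrocortisone 10 µM 16 members passed in place of 25. Ribosomal RNA took 16.63% to 37.31% of counts with hormone and 28.56% to 91.38% in vehicle. With ribosomal RNA genes taken out 23 members fell, and without libraries over 75% ribosomal RNA 22 fell.

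**Figure D2:**
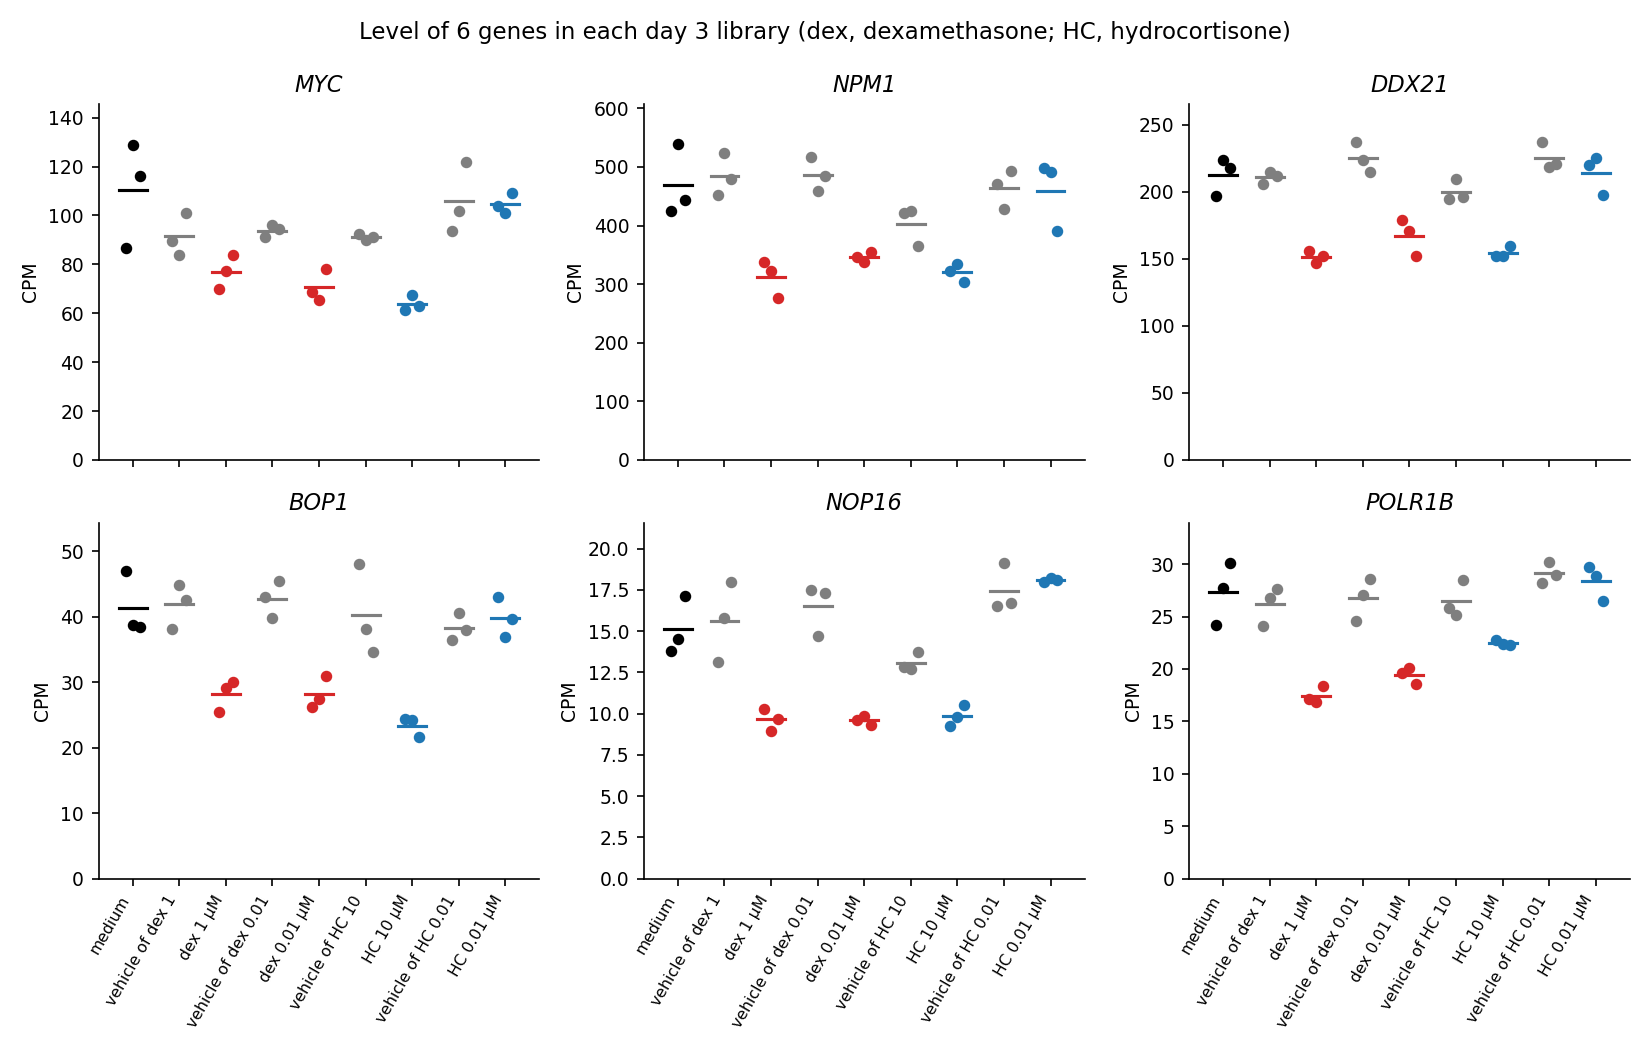
CPM of 6 genes in each day 3 library (points) with the group mean (bar), on axes from 0; vehicle libraries are grey, dexamethasone red, hydrocortisone blue and medium black. BOP1 with hydrocortisone 10 µM sits at 21.6 to 24.3 CPM, below all other libraries shown, while with hydrocortisone 0.01 µM it sits at 36.9 to 43 CPM, among the vehicle libraries.

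The 3 comparisons share no library, so their calls can be set side by side. A core of 15 genes fell in all 3: NOP56, DKC1, NHP2, NOLC1, WDR43, NOC2L, MRTO4, NOP16, BOP1, PES1, WDR12, NCL, NPM1, GNL3 and DDX21. They make up 51.7%, 62.5% and 60% of the members that fell with dexamethasone 1 µM, dexamethasone 0.01 µM and hydrocortisone 10 µM. Over all genes tested 671, or 3.99%, fell in all 3, which is 32.5%, 50.9% and 53.1% of the genes that fell in each. Another 11 members fell in 2 of the 3, MYC among them, and 11 in 1. The 8 that passed in none were POLR1A, POLR1C, UTP15, UTP20, NOC4L, BYSL, NOP2 and PPAN.

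Hydrocortisone at 0.01 µM left the members where they were within the precision of the test. None of the 45 passed (0% of all genes tested did), none had an unadjusted p under 0.05, and DESeq2 called none either. Their changes ran from -0.14 to 0.17, with a median of -0.01 and a median 95% half-width of 0.2. MYC was at 104, 101 and 109 CPM with hormone and at 93.8, 102 and 122 CPM in vehicle. The hormone libraries lay inside the vehicle range, and the change was -0.02 with an interval from -0.21 to 0.18. For NPM1 the interval ran from -0.2 to 0.17 and for DDX21 from -0.2 to 0.05.

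The ethanol vehicle was compared with plain medium to give the background of the design. No member passed (0% of all genes did) by edgeR or by DESeq2, and 2 had an unadjusted p under 0.05. MYC was one of the 2, at 86.5, 129 and 116 CPM in medium against a range of 83.8 to 122 CPM over the 12 vehicle libraries (log2 change -0.21, SE 0.07, adjusted p = 0.808). The medium libraries of MYC were spread more widely than those of any hormone group. PPAN was the other, at 0.48 with an SE of 0.19.

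**Figure D3:**
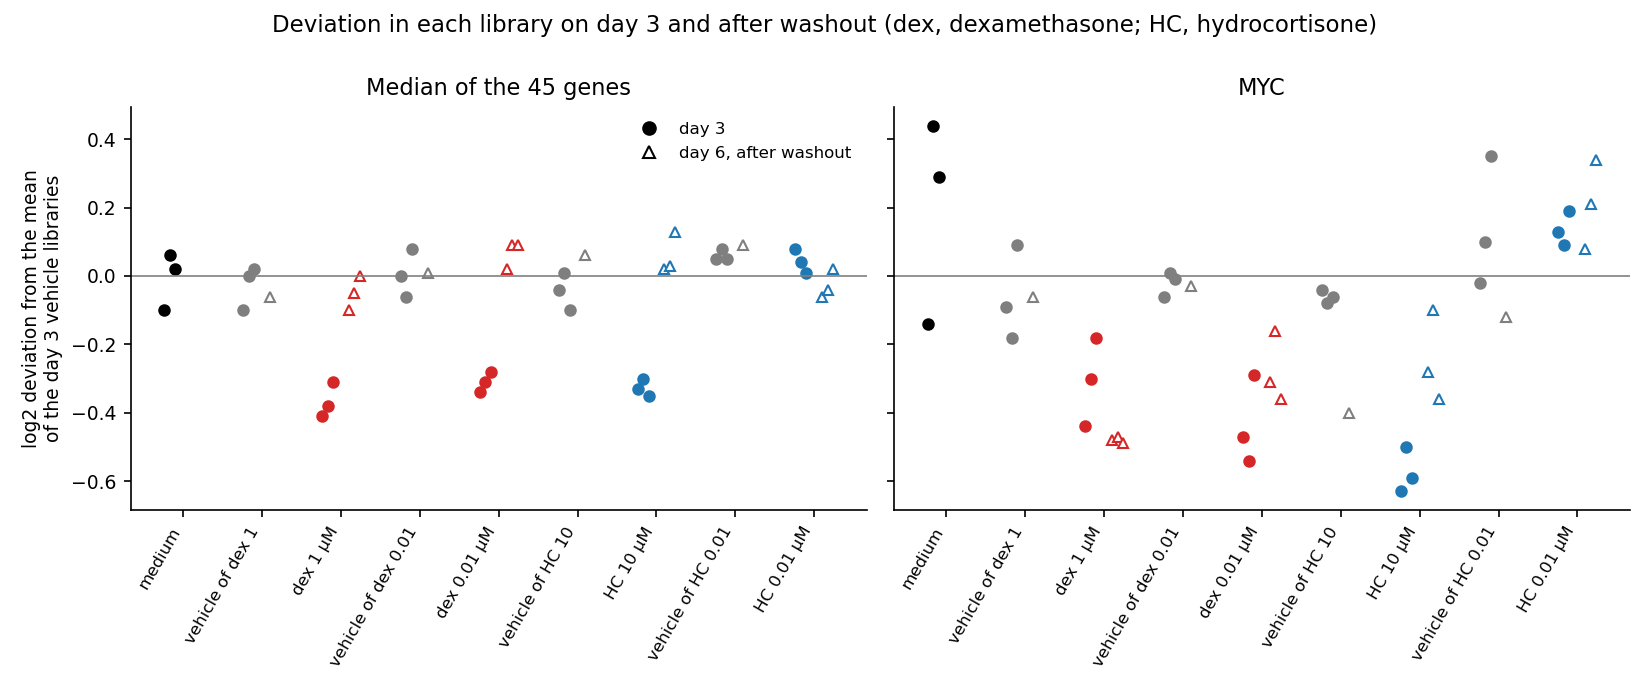
Median log2 deviation of the 45 genes (left) and of MYC (right) from the mean of the day 3 vehicle libraries, 1 point per library; filled circles are day 3 and open triangles day 6. On the left the 9 libraries of the 3 active treatments lie between -0.41 and -0.28 on day 3 and between -0.1 and 0.13 on day 6.

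Library by library, the median deviation of the 45 genes from the day 3 vehicle mean was -0.41, -0.38 and -0.31 with dexamethasone 1 µM, -0.34, -0.31 and -0.28 with dexamethasone 0.01 µM, and -0.33, -0.3 and -0.35 with hydrocortisone 10 µM. In the vehicle libraries of day 3 it ran from -0.1 to 0.08 and in those of hydrocortisone 0.01 µM from 0.01 to 0.08. Every library of the 3 active treatments was below every other day 3 library. MYC was less orderly: with dexamethasone 1 µM it deviated by -0.44, -0.3 and -0.18, and 1 vehicle library also reached -0.18.

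Doses and hormones were compared directly as differences of their vehicle-corrected changes. Between 1 and 0.01 µM dexamethasone no member differed (0.0476% of all genes did), 1 had an unadjusted p under 0.05 and DESeq2 called none. For MYC the difference was 0.16 with an interval from -0.11 to 0.44. Between 10 and 0.01 µM hydrocortisone 6 members were lower at the higher dose, against 2.36% of all genes: BOP1 (-0.84, SE 0.14, adjusted p = 5.85e-05), MYC (-0.5, SE 0.14, adjusted p = 0.023), NOLC1 (-0.35, SE 0.1, adjusted p = 0.0231), DKC1 (-0.38, SE 0.11, adjusted p = 0.0283), WDR74 and MYBBP1A. The median difference over the 45 was -0.3.

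At the 1 dose that both hormones share, 0.01 µM, dexamethasone lowered 11 members more than hydrocortisone did, against 2.91% of all genes. Dexamethasone differs from hydrocortisone in carrying a fluorine atom, one more methyl group and one more double bond in its first ring. The 4 with the smallest p were NOP16 (-0.84, SE 0.16, adjusted p = 0.000439), BOP1 (-0.66, SE 0.14, adjusted p = 0.00191), GRWD1, a histone-binding assembly factor (-0.59, SE 0.14, adjusted p = 0.00617), and GNL3 (-0.41, SE 0.11, adjusted p = 0.0127). The other 7 were DDX21, NPM1, POLR1B, TSR1, NHP2, NOP56 and NOP58. MYC had -0.39 with an interval from -0.67 to -0.12 and did not pass (adjusted p = 0.0889).

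Both of these counts were sensitive to single libraries and to the fit. The count of 6 was 2 without replicate 4 of hydrocortisone 10 µM, 3 without replicate 2 of hydrocortisone 0.01 µM, 3 without replicate 1 of its vehicle and 11 without replicate 3 of the vehicle of hydrocortisone 10 µM. MYC lost its call, at -0.488 to -0.417, without any 1 of 6 libraries: replicate 2 or 4 of hydrocortisone 10 µM, replicate 1 of its vehicle, replicate 4 of hydrocortisone 0.01 µM, and replicate 1 or 2 of the vehicle of that dose. NOLC1 lost it without replicate 4 of hydrocortisone 10 µM or replicate 1 or 4 of the vehicle of hydrocortisone 0.01 µM (-0.35 to -0.306). DKC1 lost it without replicate 3 or 4 of hydrocortisone 10 µM, replicate 2 of its vehicle, replicate 2 or 4 of hydrocortisone 0.01 µM, or replicate 2 or 4 of the vehicle of that dose (-0.381 to -0.338). The count of 11 was 5 without replicate 2 or replicate 3 of hydrocortisone 0.01 µM. It was 6 without replicate 1 of the vehicle of hydrocortisone 0.01 µM, or without replicate 1 or 3 of the vehicle of dexamethasone 0.01 µM, and 7 without replicate 2 of the former or replicate 3 of dexamethasone 0.01 µM. With only the groups compared in the fit it was 3. GNL3 lost its call without replicate 3 of dexamethasone 0.01 µM or replicate 1 of its vehicle (-0.336 and -0.346).

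On day 6, after washout, each treatment was compared with the 4 vehicle libraries of that day, which all 4 comparisons share. After dexamethasone 1 µM 2 members were lower, against 5.03% of all genes. FBL was at 24.3, 24.6 and 23.2 CPM, and at 29.7, 34.3, 35.1 and 30.8 CPM in the vehicle libraries (log2 change -0.43, SE 0.1, adjusted p = 0.0032). MYC was at 68, 68.7 and 67.5 CPM against 72.2, 87.4, 91.1 and 93.2 CPM (-0.33, SE 0.09, adjusted p = 0.0116). Neither gene overlapped between groups, and the 3 hormone libraries of MYC lay close together. Both passed under all 15 alternative settings. The median over the 45 was -0.09, with 35 of them below 0, and 11 had an unadjusted p under 0.05. In 6 members all hormone libraries were below all vehicle libraries (13.3%, beside 10.8% of all genes tested), and in 1 all were above.

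No member passed on day 6 after dexamethasone 0.01 µM (0.0833% of all genes did), hydrocortisone 10 µM (0.892%) or hydrocortisone 0.01 µM (0.0892%). By edgeR 1, 2 and 6 members had an unadjusted p under 0.05 in these comparisons, and DESeq2 called 0, 0 and 1. The 1 was MYC, which after hydrocortisone 0.01 µM stood at 101, 110 and 120 CPM, above all 4 vehicle libraries. Its change was 0.37 (SE 0.09, adjusted p = 0.0748), and it passed in 4 of 15 alternative settings, one of which left out the day 6 vehicle library of dexamethasone 0.01 µM (0.41, adjusted p = 0.0343). Over those settings the adjusted p ran from 0.0183 to 0.398. MYC was thus at 67.5 to 68.7 CPM after the higher dose of dexamethasone and at 101 to 120 CPM after the lower dose of hydrocortisone, with the vehicle libraries between.

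The vehicle libraries themselves did not differ between day 6 and day 3 in any member (0.505% of all genes did) by edgeR or DESeq2, and 3 members had an unadjusted p under 0.05. GNL2, at 0.18, passed only without replicate 2 of the vehicle of hydrocortisone 10 µM on day 3 (0.21, adjusted p = 0.0254).

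**Figure D4:**
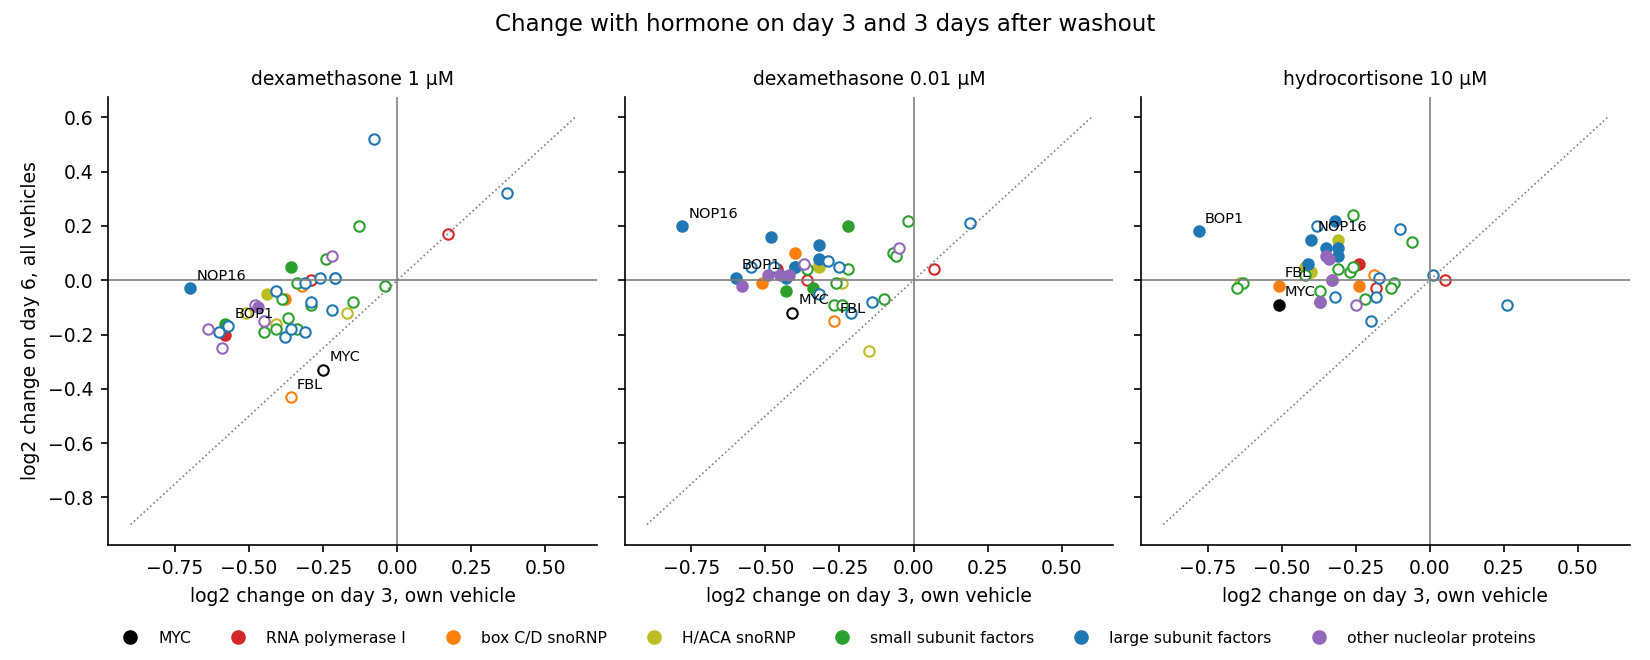
Log2 change of each of the 45 genes on day 3 against its own vehicle (horizontal axis) and on day 6 against the 4 vehicle libraries of that day (vertical axis); filled points passed the test of the washout change and the dotted line marks equal change. Most points lie to the left of 0 but close to 0 in height; MYC and FBL lie near the line after dexamethasone 1 µM.

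The washout change itself was tested by subtracting the change on day 3 from that on day 6. For this test a treatment was set against the averaged vehicle groups of the same day, so the 3 tests share vehicle libraries. After hydrocortisone 10 µM 20 members rose back, against 4.31% of all genes, with a median of 0.4. BOP1 rose by 0.98 (SE 0.12, adjusted p = 2.07e-07), NOP16 by 0.81 (SE 0.14, adjusted p = 6.23e-05), NOLC1 by 0.47 (SE 0.08, adjusted p = 0.000129) and NOC2L by 0.47 (SE 0.09, adjusted p = 0.000307). BOP1 went from 24.3, 24.2 and 21.6 CPM to 45.6, 50 and 44.4 CPM. MYC rose by 0.49 (SE 0.12, adjusted p = 0.00558), from 61.5, 67.3 and 63.1 CPM to 78.5, 88.7 and 74.2 CPM.

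After dexamethasone 0.01 µM 19 members rose back, against 4.01% of all genes, with a median of 0.35. NOP16 rose by 0.9 (SE 0.14, adjusted p = 1.01e-05), NOP56 by 0.47 (SE 0.09, adjusted p = 0.000314), PES1 by 0.48 (SE 0.09, adjusted p = 0.000448) and POLR1B by 0.51 (SE 0.1, adjusted p = 0.0006). NOP16 went from 9.61, 9.84 and 9.32 CPM to 17.3, 17.1 and 19 CPM, with no overlap. MYC had 0.31 (SE 0.12, adjusted p = 0.115) and did not pass.

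After dexamethasone 1 µM 7 members rose back, against 1.11% of all genes, with a median of 0.31. They were NOLC1 (0.49, SE 0.08, adjusted p = 0.000211), DDX21 (0.4, SE 0.08, adjusted p = 0.00154), NOP16 (0.67, SE 0.14, adjusted p = 0.00304), POLR1B (0.44, SE 0.1, adjusted p = 0.0116), NOP56, WDR43 and RRP12. MYC had -0.02 with an interval from -0.26 to 0.22 (adjusted p = 0.972). No washout change of MYC was detected, and the interval allows a partial rise toward vehicle as well as a further fall. The count of 7 was 4 without replicate 3 of dexamethasone 1 µM on day 3 or replicate 4 of it on day 6, 3 without the day 6 vehicle library of that dose, and 14 by DESeq2. POLR1B lost its call without replicate 3 of this treatment on day 3 or on day 6, or without that vehicle library (0.348 to 0.41). Whether the 3 washout changes differ from one another was not tested.

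The rest of the pathway was read from lists of genes that are not among the 45, for which only counts are given with the genes of smallest p. With dexamethasone 1 µM 19 of 40 further small subunit factors fell and 0 rose, with SNU13 (-0.56), WDR3 (-0.63) and WDR75 (-0.63) in front, and 20 of 40 further large subunit factors fell and 2 rose, with GTPBP4 (-0.56) and EBNA1BP2 (-0.53) among the falls and RBM28 (0.37) and DDX51 (0.35) as the rises. Of 17 further genes of RNA polymerase I and ribosomal DNA transcription 6 fell, POLR1E (-0.49) first, and 1 rose, the upstream binding factor UBTF (0.23). Of 13 exosome genes, which trim the precursor, 4 fell, EXOSC2 (-0.41) and EXOSC5 (-0.69) among them. The same lists held 17, 13, 4 and 3 falls with dexamethasone 0.01 µM (and 0, 1, 0 and 0 rises) and 10, 13, 2 and 2 falls with hydrocortisone 10 µM (and 1, 0, 0 and 0 rises). Read against all genes tested, of which 12.3%, 7.84% and 7.51% fell in the 3 comparisons, the falls among polymerase I and exosome genes with hydrocortisone 10 µM, 2 of 17 and 2 of 13, were near that background. With hydrocortisone 0.01 µM none of them passed.

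Genes of growth and metabolism that MYC is known to induce were counted too. Of 19 tested 15 fell and 1 rose with dexamethasone 1 µM, 10 fell and 0 rose with dexamethasone 0.01 µM, and 11 fell and 1 rose with hydrocortisone 10 µM. Of all genes tested 12.3%, 7.84% and 7.51% fell and 10.4%, 6.14% and 5.57% rose in the same order. ODC1, the first enzyme of polyamine synthesis, changed by -0.69, -0.56 and -0.51, and PA2G4, a nucleolar growth regulator, by -0.58, -0.43 and -0.43. The purine enzyme PAICS changed by -0.55, -0.33 and -0.31. EIF4A1, a helicase of translation initiation, went the other way, with 1.05 (SE 0.24), 0.29 (SE 0.24, adjusted p = 0.488) and 0.82 (SE 0.24). Among 11 partners and rivals of MYC tested, 2 rose and 1 fell with dexamethasone 1 µM, 2 rose and 2 fell with dexamethasone 0.01 µM, and 1 rose and 1 fell with hydrocortisone 10 µM. These are 27.3%, 36.4% and 18.2% of the 11, beside 22.6%, 14% and 13.1% of all genes that passed in either direction. The shares with dexamethasone 1 µM and hydrocortisone 10 µM were near that background. MLXIP rose by 0.79, 0.74 and 0.33 and the MYC antagonist MXI1 changed by -0.56, -0.45 and -0.33. MXD4, another MYC antagonist, rose with both doses of dexamethasone (0.29 and 0.34). MAX, the obligate partner of MYC, passed only with dexamethasone 0.01 µM (-0.36), and a difference between treatments was not tested.

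Free ribosomal proteins RPL5 and RPL11 with 5S RNA bind MDM2, the brake on p53, and this link is the best known check on ribosome assembly. RPL5 changed by -0.49, -0.37 and -0.21 with the 3 active treatments in the same order, and each passed. MDM2 rose by 1, 0.5 and 0.89 and CDKN1A, the p21 inhibitor of cyclin-dependent kinases, by 0.96, 0.58 and 0.64. All 6 genes of this list passed with dexamethasone 1 µM, 3 lower and 3 higher. With dexamethasone 0.01 µM 2 were lower and 3 higher, and with hydrocortisone 10 µM 2 were lower and 2 higher. Of all genes tested 22.6%, 14% and 13.1% passed in either direction with the 3 treatments.

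The promoters of the members were searched for the MYC motif CACGTG, which reads the same on both strands, because the members moved together. RefSeq promoter windows (GRCh38.p14, 250 bases before to 50 after each start) matched 38 of the 45 genes. The motif stood in a window of 18 of these 38, or 47.37%, and in 12.38% of the 10993 tested genes with a window. Over all 35116 windows of that length 7.26% held it. Members with and without the motif are set side by side without a test. With dexamethasone 1 µM 12 of 18 with it and 12 of 20 without it fell, with medians of -0.365 and -0.325. With dexamethasone 0.01 µM 7 of 18 and 12 of 20 fell, and with hydrocortisone 10 µM 11 of 18 and 11 of 20. A motif match is a description of the sequence and no evidence of binding.

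The stretch around the motif is shown for the 4 members that hold it and had the smallest p with dexamethasone 1 µM. Sequences run 5′ to 3′ on the strand of the gene, and capitals mark the E-box. In DDX21 (chr10:68956586-68956651, plus strand) and LYAR (chr4:4290050-4290115, minus strand) the motif starts 31 and 64 bases before the transcription start. In WDR43 (chr2:28894640-28894696, plus strand) and GNL3 (chr3:52686008-52686061, plus strand) it lies just after the start, at offsets 3 and 6. Offsets count from 0 at the RefSeq start, and each printed stretch takes 30 bases on either side of the motif but ends 30 bases after that start at the latest.
DDX21: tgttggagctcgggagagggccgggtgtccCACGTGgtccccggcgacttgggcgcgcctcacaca
WDR43: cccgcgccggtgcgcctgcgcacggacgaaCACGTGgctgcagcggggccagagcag
GNL3: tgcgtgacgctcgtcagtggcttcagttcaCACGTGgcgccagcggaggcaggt
LYAR: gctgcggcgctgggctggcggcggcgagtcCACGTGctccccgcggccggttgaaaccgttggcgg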

How the data were processed

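Total RNA of HMC3 flasks was sequenced from a stranded total RNA kit, per the labels' protocols. The authors deposited 1 table of raw counts, whole numbers of reads for each Ensembl gene, with no normalisation. Per the submitters' processing notes FastQC, STAR, featureCounts, Subread and GRCh38 were used; the sources used here give no versions, order, settings or strand option. Libraries were grouped by title. Genes were kept by filterByExpr (minimum count 10, minimum total 15), scaled by TMM and fitted in edgeR 4.0.16 under R 4.3.3 (robust glmQLFit, legacy = FALSE) over 43 libraries and 17 groups, with 26 residual degrees of freedom, and tested by glmQLFTest with Benjamini-Hochberg adjustment over 16816 genes at 0.05. The 4 day 6 vehicle groups of 1 library were assumed to vary like the others. Fitted log2 changes are printed with standard errors, and CPM are counts per 1e6 of the TMM-scaled library. Library deviations use log2(CPM + 0.5). Replicates differed by more than sampling noise (ratio of observed to counting variance 1.52 to 3.31 over 39 pairs). The fit was also run on counts simulated with its own dispersions, which cannot show how it handles effects outside that model. Same-numbered libraries of hydrocortisone 10 µM on days 3 and 6 deviated together from their group means (correlations 0.33, 0.26 and 0.26, each over 0.1), and in no other set of 3 pairs was every correlation over 0.1.

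The members and lists were chosen with earlier results of these data known, so no p-value for a list is given. Named are MYC; every member by role; up to 8 passing members of smallest p in each of the 3 day 3 comparisons with most calls, up to 4 in the dose, day 6 and washout comparisons; and up to 3 genes per further list. UBTF, RBM28, DDX51, EIF4A1, MXD4, MAX and GAR1's library values, GNL2 and PPAN in the vehicle comparisons, and the spacer genes were chosen after their values were seen. Symbols and positions follow a current name table (19978 genes) and GENCODE v29. Alternatives were DESeq2 1.42.0, RLE factors, no filter, removal of ribosomal RNA genes or of libraries over 75% of it, other references, other libraries in the fit, a replicate block, each library left out and, added after seeing the data, the legacy quasi-likelihood fit.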

Additional observations from a re-analysis of the deposited data

Results flagged for a closer look

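Results were set apart here where the effect of a treatment on the 45 genes differed between doses, hormones or days by a test of the difference itself. Groups of 4 to 10 samples do not occur, so no library was screened as an outlier. The count of members lower with hydrocortisone at 10 than at 0.01 µM, beyond the vehicle of each dose, was 6 of 45. Of all genes tested 2.36% were lower. The count lower with dexamethasone than with hydrocortisone at 0.01 µM was 11 of 45, beside 2.91% of all genes tested. Between day 3 and day 6 the effect on members moved upward in 7 after dexamethasone 1 µM, in 19 after dexamethasone 0.01 µM and in 20 after hydrocortisone 10 µM. Of all genes tested 1.11%, 4.01% and 4.31% moved upward in the same order. None of these comparisons held a member that moved in the opposite direction.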

How the results depend on the processing

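The 49 named gene results were those of MYC and of passing members picked for small p, a choice that favours stable calls. None changed direction under the alternatives, and 949 of their 983 recomputed values kept their side of the threshold (26 lost the call, 8 gained it). Counts of members stayed within 1.5 times the reported count in 290 of 317 recomputations. With only the groups compared in the fit the counts were 12 for dexamethasone 0.01 µM and 3 for dexamethasone against hydrocortisone at 0.01 µM. Without the filter on low counts they were 3 for the hydrocortisone dose difference and 6 for dexamethasone against hydrocortisone, and the latter was 7 without ribosomal RNA genes and 7 in the legacy quasi-likelihood fit. For hydrocortisone 0.01 µM on day 6 the count was 1 (MYC) by DESeq2, 1 without libraries over 75% ribosomal RNA and 1 against the vehicles of the same hormone. The washout count of dexamethasone 1 µM was 14 by DESeq2. The cause was not tested.

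Leaving out 1 library at a time gave 22 to 30, 20 to 26 and 16 to 24 members lower with dexamethasone 1 µM, dexamethasone 0.01 µM and hydrocortisone 10 µM on day 3. It gave 2 to 11 for the hydrocortisone dose difference and 5 to 12 for dexamethasone against hydrocortisone. On day 6 it gave 2 to 3 after dexamethasone 1 µM and 0 to 1 after hydrocortisone 0.01 µM. The washout counts were 3 to 9, 15 to 23 and 16 to 21, and vehicles between days gave 0 to 1. Over all genes, calls for dexamethasone 0.01 µM were 2351, and 709 with only the groups compared, 1522 without libraries over 75% ribosomal RNA and 3632 against all day 3 vehicles. For hydrocortisone 10 µM they were 2200, and 4066 against all day 3 vehicles.

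With the replicate number as a block 33, 26 and 27 members fell on day 3 in the same order, and the washout counts were 9, 22 and 20. Among named genes the block changed 1 call, MYC with dexamethasone 1 µM on day 3, which then passed at -0.303. Dexamethasone 0.01 µM and its vehicle had same-number correlations of -0.09, -0.01 and -0.11, which showed no pairing of those libraries. With 3 libraries per group, of which 1 held 94.86% and another 82.49% ribosomal RNA, this check cannot exclude pairing. Over all comparisons and settings the median log2 change of all genes was at most 0.05 in size. Such scaling takes most genes as unchanged, so this value cannot show a shift shared by all genes. The least abundant members, with under 10 counts in some library, limit what could be called.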

Other observations

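Reads of the ribosomal RNA precursor were looked for at 2 annotated genes, MIR3648-1 and ENSG00000277437, which lie in the spacer upstream of the 18S sequence on chromosome 21 (chosen after seeing the data). A library held 21 to 314 such counts. They made up 0.904 to 2.71 CPM with hydrocortisone 10 µM on day 3 and 3.07 to 9.78 CPM in its vehicle. The 9.78 CPM came from the vehicle library with 91.38% ribosomal RNA. With hydrocortisone 0.01 µM, where no gene passed, the order was the reverse: 2.99 to 4.35 CPM against 1.8 to 2.61 CPM in its vehicle. With dexamethasone 1 µM they made up 2.67 to 6.04 CPM, and 1.59 to 5.69 CPM in its vehicle, and with dexamethasone 0.01 µM 2.08 to 14.2 CPM against 2.11 to 5.4 CPM. The highest value, 14.2 CPM, came from the library with 94.86% ribosomal RNA, and on day 6 values reached 11.2 CPM in a library with 76.77% and 10.7 CPM in one with 23.11%. No test was made.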
